A study of Mus musculus with 24 samples.

Results

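The 47 genes described here encode the protein shell of cornified epithelial cells and the proteins made with it. They were all genes whose mouse symbol starts with Lce (21 late cornified envelope genes) or Sprr (14 small proline-rich genes), without 3 pseudogenes, together with 12 others, the envelope precursors Ivl and Lor, the filaggrins Flg and Flg2, the transglutaminases Tgm1 and Tgm3, the plakins Evpl and Ppl, and Cnfn, Sbsn, Dmkn and Krtdap. They were 47 of the 52636 genes with an Ensembl identifier in the tables, and 39 of them lie on chromosome 3.

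In stratified squamous epithelia such as the epidermis, keratinocytes leaving the basal layer build a cornified envelope under the plasma membrane. Envoplakin (Evpl) and periplakin (Ppl) form an early scaffold, involucrin, loricrin, the small proline-rich and the late cornified envelope proteins are laid onto it, and transglutaminases join them by covalent bonds. The lacrimal gland (LG) is a tear-secreting gland of acini and ducts lined by simple or bilayered epithelium, which does not normally cornify, so the levels of these genes in cultured LG cells bear on whether squamous differentiation occurred in culture.

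RNA was sequenced from spheres of lacrimal gland stem cells (LGSCs) and from LG of C57BL/6 mice. LGSC spheres were grown from adult LG cells in Matrigel, in a serum-free medium with EGF, FGF10, Wnt3A and the ROCK inhibitor Y-27632, and were collected at passage 2 after 5 days (2 libraries), 7 days, 10 days or 14 days (3 libraries each) of culture. Tissue came from adult glands and from the glands of E17.5 and E19.5 embryos (3 libraries each, E giving the embryonic day). No label says whether replicates came from separate mice or cultures, so the p-values measure the spread between these libraries, which may be technical.

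Values are FPKM, fragments scaled to gene length and to a depth for each library. The reads behind them were recovered from the steps between low values, at 6434281 to 9257025 a library. The scaling depth that these steps imply was not the recovered total. Recovered reads were 2.67, 2.57 and 1.10 times that depth in adult LG replicates 1, 2 and 3, and 0.832 to 1.13 times in every other library. The 9 fibroblast markers summed to 0.476 to 3.72 FPKM in the spheres, against 176 to 347 in adult LG and 4743 to 5723 in embryonic LG, and the 3 endothelial and 4 leukocyte markers were at most 0.209 FPKM in sum in any sphere library. In bulk tissue, fewer cells of a type and less RNA per cell cannot be told apart. The epithelial genes Krt8 and Epcam were listed at 0 in all 20 libraries, those of the gland included. In a library of passage 10 spheres, described below, they were at 414 and 261 FPKM, and the paper detected Epcam by staining in its spheres. A value of 0 in these tables is therefore not evidence of absence. Low values above 0 may carry a similar limit, as for Krt5 and Krt14 below. Of the 47 genes, 8 were listed at 0 in all 20 libraries (Sprr1a, Sprr1b, Sprr2f, Ivl, Lor, Ppl, Lce3a and Lce3d), and nothing could be learned of them from these libraries.

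The promoters of 44 of the 47 genes were in the RefSeq table of GRCm38.p6, and the 250 bases before the transcription start were searched for 2 motifs. TGANTCA, where N is any base, is the site bound by AP-1, a transcription factor active in keratinocytes, and reads as the same pattern on both strands. TATAAA, the core of the element that sets the start of transcription, was counted on the gene's strand if it began 40 to 20 bases before the start. TGANTCA occurred in 9 of 14 Sprr promoters (64.3%), in 7 of 10 promoters of the other genes (70%) and in 0 of 20 Lce promoters, against 6.75% of all 32851 promoters in the table. TATAAA occurred in 9 of 14 Sprr promoters and in 2 of 20 Lce promoters, against 1.99% of all promoters. The promoters of Sprr2d, Sprr2e, Krtdap and Lce1h are shown because these genes carried the patterns below, with both motifs in capitals, 5′ to 3′ on the strand of the gene. They lie at chr3:92338890-92339139 (plus strand), chr3:92351893-92352142 (plus), chr7:30787655-30787904 (plus) and chr3:92765066-92765315 (minus).
Sprr2d: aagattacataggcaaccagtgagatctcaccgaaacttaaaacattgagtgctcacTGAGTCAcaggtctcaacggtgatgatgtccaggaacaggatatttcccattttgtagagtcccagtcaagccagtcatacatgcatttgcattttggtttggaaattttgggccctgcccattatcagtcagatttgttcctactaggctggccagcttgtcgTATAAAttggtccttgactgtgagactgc
Sprr2e: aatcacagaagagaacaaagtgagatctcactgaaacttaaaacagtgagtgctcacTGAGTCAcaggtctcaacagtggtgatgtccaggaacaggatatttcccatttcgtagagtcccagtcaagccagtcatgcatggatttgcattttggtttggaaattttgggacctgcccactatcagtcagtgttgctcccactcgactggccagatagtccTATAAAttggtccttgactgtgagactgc
Krtdap: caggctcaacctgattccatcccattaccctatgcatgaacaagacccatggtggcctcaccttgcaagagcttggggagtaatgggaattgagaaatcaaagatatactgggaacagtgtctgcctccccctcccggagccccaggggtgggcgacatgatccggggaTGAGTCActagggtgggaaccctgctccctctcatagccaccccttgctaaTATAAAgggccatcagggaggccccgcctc
Lce1h: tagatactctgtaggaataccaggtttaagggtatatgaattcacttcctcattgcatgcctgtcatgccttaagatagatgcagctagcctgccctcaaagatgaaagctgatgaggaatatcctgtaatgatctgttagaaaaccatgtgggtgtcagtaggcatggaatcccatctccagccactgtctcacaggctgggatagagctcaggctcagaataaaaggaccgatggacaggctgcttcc
Sprr2d and Sprr2e had the same base at 220 of the 250 positions, with TGANTCA starting 193 and TATAAA 29 bases before the start in both. In Krtdap the motifs began at 81 and 30 bases before the start, and Lce1h had neither. A match is a string of letters and does not show that a factor binds there.

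Across the cultures, the levels of these genes followed the replicate number of the library more than the day of culture. In the 4 libraries numbered replicate 2 (1 at each day), 23 to 29 of the 47 genes reached 1 FPKM and the genes summed to 934 to 2744 FPKM. In the 7 libraries numbered 1 or 3, only 4 to 9 genes reached 1 FPKM and the sum was 20.7 to 220 FPKM. The sums of the replicate 2 libraries and of the others did not overlap at any day. In the gland 1 to 3 genes were at 1 FPKM or more in any library, with sums of 2.29 to 6.76 FPKM in adult LG, 13.9 to 21.7 at E17.5 and 28.6 to 33.0 at E19.5. The sums of the embryonic gland overlapped those of the replicate 1 and 3 cultures, and those of adult LG lay below them. Few genes set these sums, so an overlap does not show likeness across the group. Krtdap alone was at 24.4 to 27.5 FPKM at E19.5, and Krtdap and Dmkn were at 1728 and 394 FPKM in day 10 replicate 2.

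**Figure D1:**
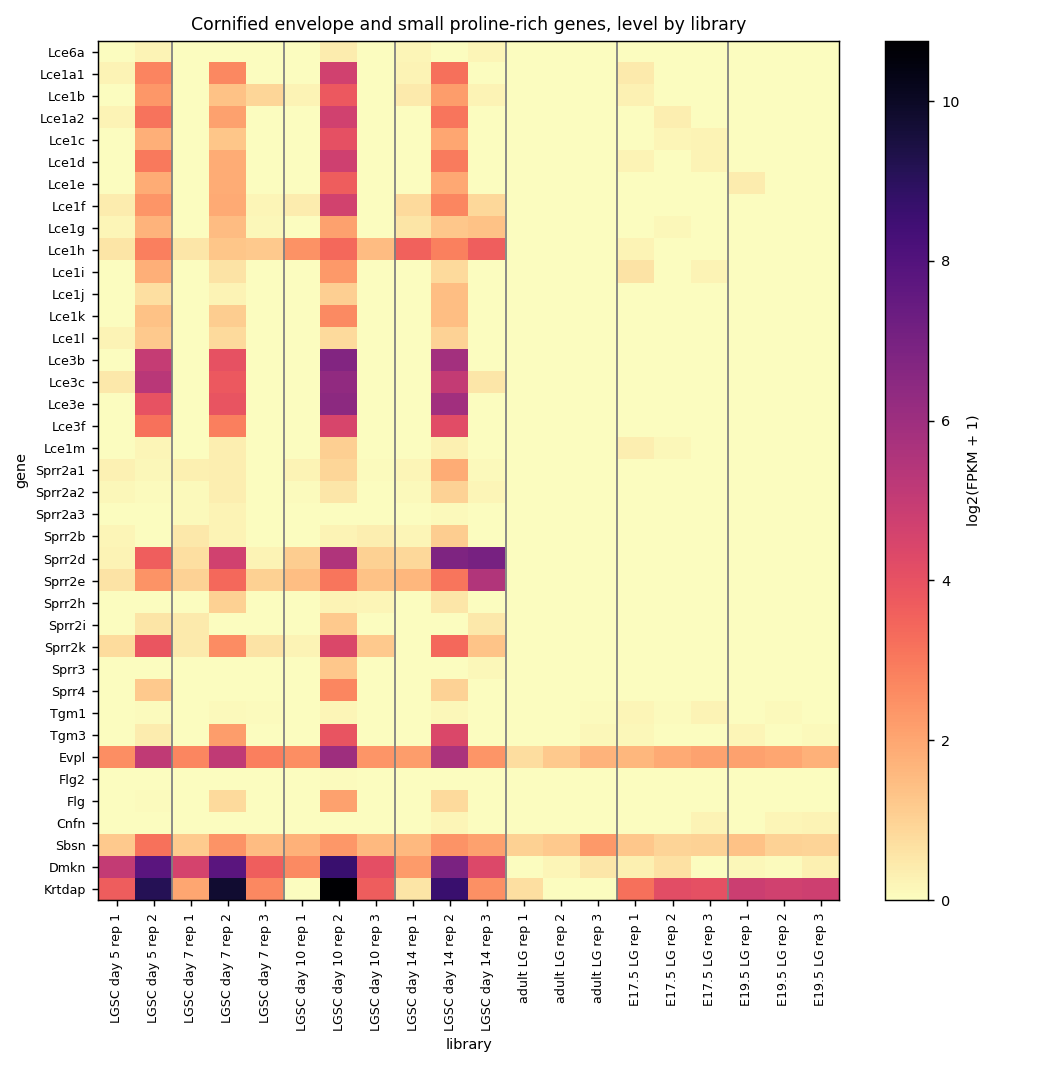
Heat map of the 39 genes with a value above 0 in any of the 20 libraries, with genes as rows grouped by family, libraries as columns grouped by day or tissue, and color giving log2(FPKM + 1). The replicate 2 library of each culture day stands out as a dark column, while Evpl, Sbsn, Dmkn and Krtdap have values in most libraries and the Lce and Sprr genes are near 0 in the gland.

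Of the 39 genes with a value above 0, 24 were highest in the replicate 2 library at all 4 culture days, against 7.56% of all 36168 genes with a value above 0. For replicate 1 at the 4 days and for replicate 3 at its 3 days the count was 0 of 39, against 2.28% and 3.16% of all genes. This was noticed in the data and is a description, since 4 libraries that share a number may share a source. The same libraries also resembled each other over all genes, as each replicate 2 library correlated best with another replicate 2 library of another day and not with a library of its own day (Pearson's r of log2 values over genes, which are not independent replicates, 0.956 to 0.966 against at most 0.934 with its own day). What sets these libraries apart was not given by the labels.

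The secreted keratinocyte proteins Krtdap and Dmkn had the highest levels of the group in replicate 2. Krtdap, a small secreted protein of differentiating keratinocytes (chr7:30787896-30791097 in GRCm38), measured 11.6 and 570 FPKM (replicates 1 and 2) on day 5. The day 7 libraries measured 3.02, 873 and 5.43 FPKM (replicates 1, 2 and 3), those of day 10 measured 0, 1728 and 11.9 FPKM, and those of day 14 measured 0.496, 392 and 4.61 FPKM. Its replicate 2 value lay far above both others at each day, and replicates 1 and 3 held at most 11.9 FPKM. Dmkn, dermokine, its neighbor on chromosome 7, measured 31.8 and 221 FPKM (replicates 1 and 2) on day 5. The day 7 libraries measured 22.3, 224 and 11.4 FPKM (replicates 1, 2 and 3), those of day 10 measured 5.16, 394 and 16.0 FPKM, and those of day 14 measured 3.74, 118 and 19.4 FPKM. Unlike Krtdap, it stayed above 3 FPKM in every culture library. Sbsn, suprabasin, the third gene of that cluster, was at 1.25 to 2.37 FPKM in replicate 1 libraries, 1.79 to 3.39 in replicate 3 libraries and 4.08 to 8.13 in replicate 2 libraries, so it varied less than the other two.

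The plakin Evpl was present in every library. It measured 4.86 and 33.1 FPKM (replicates 1 and 2) on day 5. The day 7 libraries measured 5.53, 33.9 and 6.35 FPKM (replicates 1, 2 and 3), those of day 10 measured 4.85, 61.9 and 4.11 FPKM, and those of day 14 measured 3.64, 49.7 and 4.20 FPKM. Replicate 2 was highest each time and the others lay between 3.64 and 6.35 FPKM. Tgm3, the transglutaminase of late keratinocyte and hair differentiation, was at 0.321, 3.56, 14.2 and 19.8 FPKM in replicate 2 at days 5, 7, 10 and 14, and at most 0.0273 FPKM in the other cultures. Flg, profilaggrin, was at 0.0470, 0.754, 3.34 and 0.788 FPKM in the replicate 2 libraries and at most 0.0125 FPKM in the others. For both, the values above 1 FPKM were found only in replicate 2 cultures among the 20 libraries.

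The Lce3 genes, which encode late envelope proteins known to be induced in stressed epidermis, were almost limited to replicate 2. Lce3b was at 30.7, 15.0, 103 and 56.6 FPKM in replicate 2 at days 5, 7, 10 and 14 and was listed at 0 in the 16 other libraries. Lce3e was at 14.6, 14.3, 87.3 and 58.3 FPKM and Lce3f at 7.96, 6.28, 21.5 and 17.3 FPKM in the same libraries, and both were at 0 elsewhere. Lce3c was at 38.2, 13.1, 80.2 and 31.1 FPKM there, with 0.415 and 0.424 FPKM in 1 library each of day 5 and day 14. Reads of Lce3e, Lce3f and Lce3c can be hard to place, since 29.5%, 36.8% and 15.1% of the 150-base windows in their transcripts also occur in another gene, so the share of each is uncertain while the family total is less so.

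The 14 Lce1 genes were lower, at no more than 25.9 FPKM in any library, and 12 of them were highest in replicate 2 at each day. Lce1d, with 6.96, 2.64, 25.9 and 6.80 FPKM at the 4 days in replicate 2 and 0 in the 7 other culture libraries, was typical, as were Lce1a1 (5.65, 5.44, 24.7 and 8.29 FPKM) and Lce1a2 (7.84, 3.40, 24.5 and 7.54 FPKM). In replicate 2, Lce1b reached 12.8 FPKM, Lce1c 15.6, Lce1e 11.9, Lce1f 23.7, Lce1i 3.91 and Lce1k 5.09, each at day 10. All of these peaks fell in the same library, day 10 replicate 2.

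Lce1h departed from that pattern. It measured 0.50 and 6.26 FPKM (replicates 1 and 2) on day 5. The day 7 libraries measured 0.459, 1.45 and 1.27 FPKM (replicates 1, 2 and 3), those of day 10 measured 4.48, 9.38 and 1.8 FPKM, and those of day 14 measured 10.6, 6.05 and 11.6 FPKM. Replicate 2 was the highest library up to day 10 and the lowest at day 14, and the 3 values of day 14 were all above the 3 of day 7. These values rest on 3 to 68 reads a library. In the gland Lce1h was listed at 0 in 8 of 9 libraries, and at 0.182 FPKM, which is 1 read, in 1 library of E17.5. Lce1g, its neighbor, was at 0.485, 1.34 and 1.56 FPKM at day 14 in replicates 1, 2 and 3, where replicate 3 was again highest.

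Sprr2d and Sprr2e, of the Sprr2 family whose products cross-bridge the envelope, had a second high library. Sprr2d measured 0.173 and 11.3 FPKM (replicates 1 and 2) on day 5. The day 7 libraries measured 0.634, 24.4 and 0.164 FPKM (replicates 1, 2 and 3), those of day 10 measured 1.16, 45.0 and 1.02 FPKM, and those of day 14 measured 0.824, 112 and 128 FPKM. Sprr2e measured 0.545 and 4.33 FPKM (replicates 1 and 2) on day 5. The day 7 libraries measured 1.00, 9.29 and 1.04 FPKM (replicates 1, 2 and 3), those of day 10 measured 1.75, 7.43 and 1.61 FPKM, and those of day 14 measured 2.08, 7.47 and 43.1 FPKM. At day 14 replicate 3 was thus the highest library for both genes. In replicate 1, Sprr2e rose at each day to 2.08 FPKM (3, 6, 10 and 12 reads), and Sprr2d stayed at or below 1.16 FPKM. Sprr2k did not share this, with 13.7, 5.02, 19.8 and 9.35 FPKM in replicate 2 at the 4 days and at most 1.51 FPKM in the other culture libraries. Sprr4 was at 1.28, 0, 5.62 and 0.973 FPKM in replicate 2 and was listed at 0 in the 16 other libraries. Of the remaining Sprr genes, Sprr2a1, Sprr2a2, Sprr2a3, Sprr2b, Sprr2h, Sprr2i and Sprr3 reached at most 2.69 FPKM in any of the 20 libraries, and Sprr2a1 and Sprr2a2 share 89.6% and 89.0% of their 150-base windows with another gene.

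**Figure D2:**
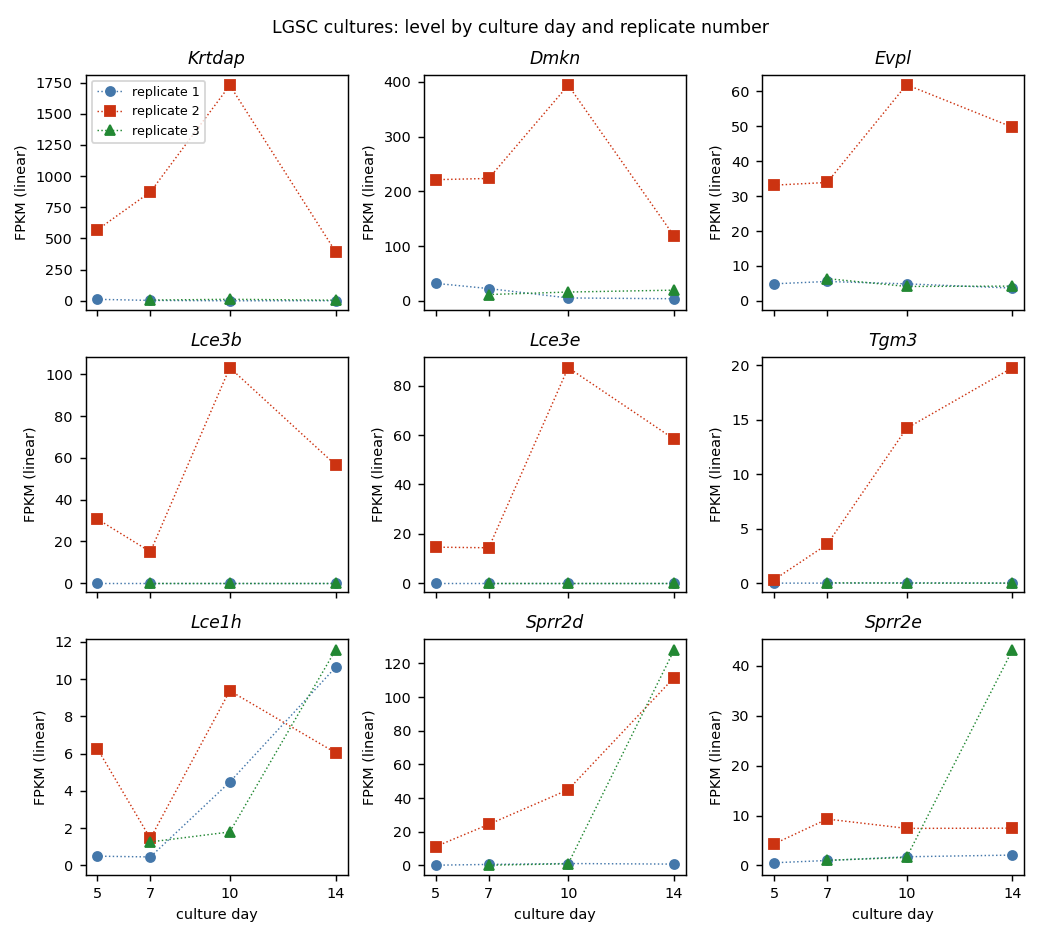
Level in FPKM (linear axis) against culture day for 9 genes, with circles for replicate 1, squares for replicate 2 and triangles for replicate 3 (no replicate 3 at day 5), and dotted lines that join libraries with the same number. The squares lie apart from the other symbols for Krtdap, Dmkn, Evpl, Lce3b, Lce3e and Tgm3, whereas Lce1h is higher in all libraries of day 14 than of day 7, and Sprr2d and Sprr2e have a high triangle at day 14.

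The other genes of squamous differentiation, 48 genes of desmosomes, barrier lipids, proteases, transcription factors and keratins, were split in the same way. Of the 38 with a value above 0 in culture, 26 were highest in replicate 2 at all 4 days, against 7.56% of all 36168 genes with a value above 0. This was so for 9 of 10 desmosome and envelope partners, 7 of 7 lipid barrier enzymes, 5 of 6 proteases and inhibitors, 2 of 5 transcription factors and 3 of 10 keratins. The lipid barrier enzymes summed to 89.6 to 254 FPKM in the replicate 2 libraries and 3.78 to 16.1 in the others. The 6 epidermis markers (Krt1, Krt10, Lor, Flg, Krtdap and Sbsn, 4 of them among the 47 genes) summed to 590 to 3040 FPKM in the replicate 2 libraries and 2.42 to 14.0 in the others, with Krt10 at most 0.307 FPKM and Lor at 0. Krt1, a keratin of suprabasal epidermis, was at 109, 467, 1304 and 193 FPKM in replicate 2 at days 5, 7, 10 and 14 and at most 0.481 FPKM in the other culture libraries. Krt18, a keratin of simple epithelia, had the opposite order, with 130 to 176 FPKM in the replicate 2 libraries and 689 to 1734 FPKM in the others. The part of other cell types in these differences was not tested.

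To ask whether these genes changed with time in culture, a slope over culture days was fitted with limma on log2(FPKM + 1) to the 11 sphere libraries. None of the 24 genes that passed the filter (mean FPKM of 0.5 or more) was below 0.05 in p after Benjamini-Hochberg adjustment, against 2.14% of all 15584 genes, of which 101 rose and 233 fell. The median slope of the 24 genes was 0.0021 log2 units a day, and that of all genes was -6.6e-05. One gene, Lce1h, had an unadjusted p under 0.05, with a slope of 0.24 ± 0.072 (SE) log2 units a day and an adjusted p of 0.108 in limma. The slopes of Sprr2d (0.36 ± 0.20, adjusted p = 0.367 in limma) and Sprr2e (0.21 ± 0.11, adjusted p = 0.316) were also above 0 and were not called. The slope of Krtdap was -0.22 ± 0.33 and that of Evpl -0.03 ± 0.13, both smaller than their errors. With the replicate number as a block, which treats same-numbered cultures as pairs, 783 of all genes and none of the 24 were called. Lce1h then had an adjusted p of 0.0641 in limma.

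Whether Lce1h was called depended on the libraries in the fit and on the method. Without day 5 replicate 2, its slope was 0.32 with an adjusted p of 0.0441 in limma. Without all 4 replicate 2 libraries, it was 0.36 ± 0.041 with an adjusted p of 0.0160, and 0.0312 with the replicate block. In that fit, 8 of the 47 genes were tested and Lce1h was the one called, beside 280 of all 15261 genes (180 with the block). limma-voom on the recovered reads called Lce1h (adjusted p = 0.0495), beside 322 of all 11965 genes. With the replicate block it called Lce1h, Lce3e, Sprr2d and Tgm3 (adjusted p of 0.0393, 0.0370, 0.0244 and 0.00748). These were 4 of 24 tested, beside 1186 of all 11965 genes.

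Between day 14 and day 7, none of the 22 genes tested had an adjusted p under 0.05 in limma, nor did any of the 15744 genes in all (0%), although 1557 had an unadjusted p under 0.05. Lce1h was at 1.06 ± 0.527 FPKM (SD, n = 3) at day 7 and 9.43 ± 2.97 FPKM (SD, n = 3) at day 14. Its log2 change was 2.33 ± 0.31 (SE), with an adjusted p of 0.335 in limma, 0.225 with the replicate block, and 0.0473 in the blocked limma-voom fit of recovered reads, a fit that called 116 of all genes. Sprr2d had a log2 change of 3.03 ± 1.96 (SE) and Sprr2e of 1.59 ± 1.09 (SE), and neither was called. The related genes gave 0 calls of 29 tested in this comparison and 0 of 29 in the slope.

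The comparison with the gland asked which of these genes were higher in culture than in the tissue of origin. In adult LG, 41 of the 47 genes were listed at 0 in all 3 libraries, and Evpl and Sbsn alone reached 1 FPKM. In E17.5 LG and in E19.5 LG, 30 and 38 genes were listed at 0, and Evpl, Sbsn and Krtdap reached 1 FPKM. Most genes tested between culture and gland therefore passed the filter through the cultures alone, so the number that differed is not evidence about the group. Values of 0 were also common over all genes. Of 63862 entries listed, 22294 to 28801 were above 0 in an adult library and 29508 to 30827 in an embryonic library. The 8 genes listed at 0 in all 20 libraries are part of each count at 0. Both culture days were compared with the same 3 adult libraries, and day 14 enters 2 of the comparisons. The log2 change of a gene listed at 0 in the gland is set by the pseudocount of 1 and gives no bound on its fold. Gland libraries that are all at 0 add no spread to its SE.

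At day 7, 3 of 15 tested genes were higher than in adult LG, against 35.2% of all 17698 genes called in either direction and 14.2% called higher. They were Dmkn (log2 change 5.10 ± 1.01 SE, adjusted p = 0.0102 in limma), Evpl (2.36 ± 0.67, adjusted p = 0.0345) and Lce1h (1.01 ± 0.24, adjusted p = 0.0199). Dmkn was at 0, 0.144 and 0.419 FPKM in adult LG, below every culture library. Evpl was at 0.649, 1.28 and 2.26 FPKM in adult LG, also below all 11 culture libraries. The call on Lce1h rests on 3, 8 and 8 reads at day 7 and 0 in each adult library. In adult replicates 1 and 2 the scaling depth was lower, so 1 read stands for a larger FPKM there. The call was lost in 4 of the 12 alternatives that tested it. Krtdap, with a log2 change of 4.59 ± 1.96, was not called (adjusted p = 0.112 in limma), and without the replicate 2 cultures it was called with a smaller change (2.12 ± 0.35, adjusted p = 0.0126). Without replicate 3 of day 7, 1 of 17 tested genes was called, and without adult replicate 1 or 2, 1 of 18. Beside these, 3770, 4971 and 4151 of all genes were called.

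At day 14, 4 of 19 tested genes were higher than in adult LG, against 29.4% of all 17872 genes called in either direction and 11.6% called higher. They were Lce1h (log2 change 3.34 ± 0.27 SE, adjusted p = 0.000573 in limma), Lce1g (1.05 ± 0.25, adjusted p = 0.0237), Dmkn (4.27 ± 1.07, adjusted p = 0.0272) and Sprr2e (3.39 ± 0.89, adjusted p = 0.0317). Lce1h, Lce1g, Sprr2d and Sprr2e were listed at 0 in every adult library. The limits given above for such genes apply to their changes and p-values, which therefore do not rank them. Sprr2d had the largest difference, 4.90 ± 1.58, and was not called (adjusted p = 0.0595). The call on Lce1g rests on 4, 11 and 12 reads in the day 14 libraries and was lost with all 20 libraries in the fit (adjusted p = 0.106 in limma) and without adult replicate 1 (0.0619) or 2 (0.0739). Lce1h was called in each of the 15 alternatives, all of which rest on the same adult values of 0. Without the replicate 2 library of day 14, 2 of 7 tested genes were called, Dmkn and Lce1h, beside 3853 of all 17630 genes. The counts were 2 of 21 without replicate 3 of day 14 and 2 of 22 without adult replicate 3, beside 2756 and 7056 of all genes. They were 1 of 22 without adult replicate 1 or 2, beside 3726 and 2949 of all genes.

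The levels of adult LG depended on the scaling. The 5 lacrimal acinus markers alone summed to 171259 to 807365 FPKM there, against at most 58.3 FPKM in any culture library. Rescaled so that every library has the same sum (TPM), the median log2 change of all genes at day 14 against adult LG moved from -0.06 to 1.46, and the calls from 2074 higher and 3186 lower to 9865 higher and 1134 lower. At day 7 the median moved from -0.08 to 1.38 and the calls from 2507 higher and 3731 lower to 9435 higher and 1271 lower. The called genes among the 47 numbered 6 at day 7 and 9 at day 14 in TPM, with none lower in either scaling.

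Of the related squamous genes, 7 of 28 tested were higher at day 14 than in adult LG and none lower, beside 11.6% of all genes called higher and 29.4% called in either direction. They included Krt17, a keratin of activated keratinocytes (log2 change 5.39 ± 0.48, adjusted p = 0.000794 in limma), the cystatin Cst6, a protease inhibitor of the cornification pathway (4.14 ± 0.43, adjusted p = 0.00131), and Cdsn, corneodesmosin (3.38 ± 0.90, adjusted p = 0.0330). Casp14, a caspase of cornifying cells, was also higher (1.09 ± 0.28, adjusted p = 0.0280), as was the epidermal transcription factor Zfp750 (1.46 ± 0.39, adjusted p = 0.0341). The basal keratins Krt14 (2.07 ± 0.31, adjusted p = 0.00484) and Krt5 (1.09 ± 0.31, adjusted p = 0.0393) completed the 7. The values of these 2 keratins were low in the spheres, at 3.35 to 17.8 FPKM for Krt14 and 0.395 to 5.52 FPKM for Krt5. A library of passage 10 spheres, described below, had 7065 and 4931 FPKM. The paper reported high Krt14 staining in all sphere cells. Low values above 0 in these libraries may therefore be too low, and not only values of 0.

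Against E19.5 LG, 6 of 20 tested genes were higher at day 14, against 48.4% of all 17611 genes called in either direction and 18.1% called higher. They were Lce1h (log2 change 3.34 ± 0.24 SE, adjusted p = 0.000108 in limma), Lce1g (1.05 ± 0.22, adjusted p = 0.00903, on the same few reads, and 0.107 with all 20 libraries in the fit), Dmkn (4.33 ± 1.08, adjusted p = 0.0173), Sbsn (0.95 ± 0.25, adjusted p = 0.020), Sprr2e (3.39 ± 0.90, adjusted p = 0.0214) and Sprr2d (4.90 ± 1.61, adjusted p = 0.0446). Lce1h, Lce1g, Sprr2d and Sprr2e were listed at 0 in every E19.5 library, so the same limits apply to them here. Krtdap was not called (-0.85 ± 1.93), and its day 14 values lay on both sides of those of E19.5. Without the replicate 2 library of day 14, Krtdap was lower in culture (-3.22 ± 0.53, adjusted p = 0.00466 in limma) and Sprr2d was no longer called (adjusted p = 0.0997). In that fit 5 of 7 tested genes were called, 4 higher and 1 lower, beside 8808 of all 17431 genes (3263 higher and 5545 lower). Without replicate 3 of day 14, 3 of 21 tested genes were called, and without E19.5 replicate 1, 3 of 22, beside 7377 and 6769 of all genes. Without E19.5 replicate 2 or 3, 2 of 22 were called, beside 6172 and 6239 of all genes. In TPM the median of all genes moved from -0.13 to 0.10, and the calls from 3187 higher and 5332 lower to 4394 higher and 3988 lower.

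**Figure D3:**
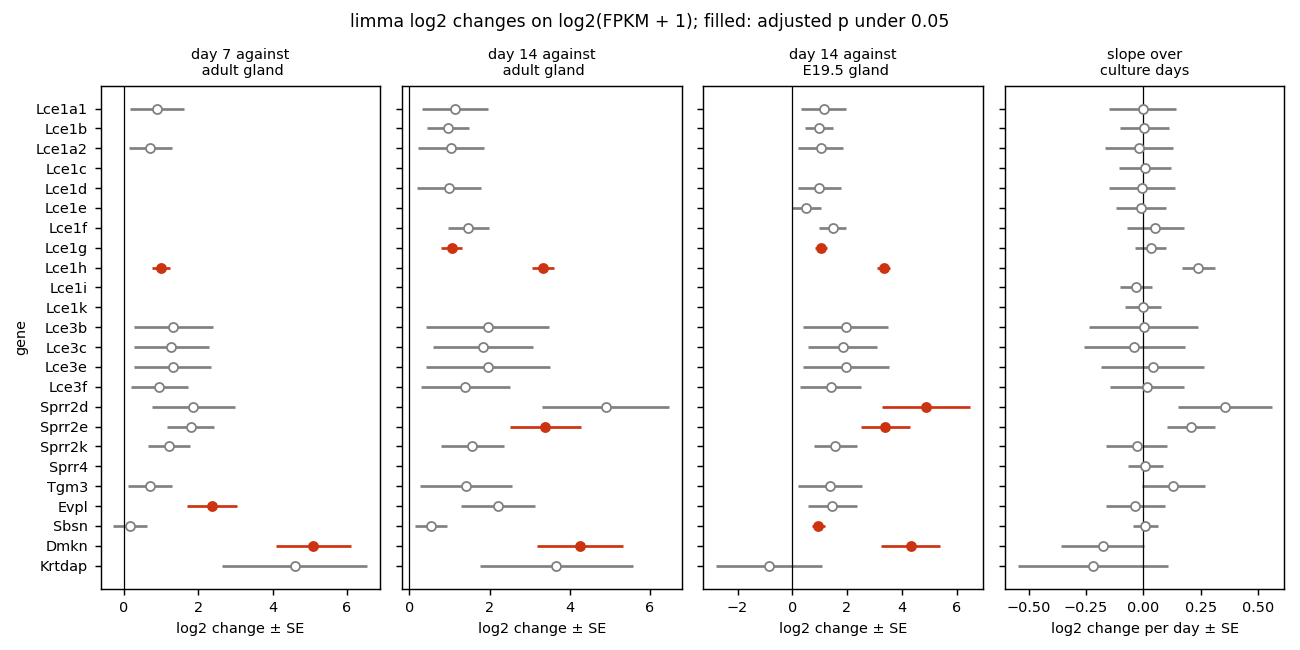
Log2 change (slope per day in the right panel) with its SE from limma on log2(FPKM + 1), for each gene tested in 4 comparisons, where filled points have an adjusted p under 0.05. Lce1h has a short error bar in every panel, and its adult and E19.5 values, all 0, add no spread. The wide bars of Krtdap, Sprr2d and the Lce3 genes reflect libraries of 1 group that differ from each other.

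Within the gland itself, 3 of the 47 genes passed the filter, and Krtdap was the one that differed most between stages. It was at 0.611, 0 and 0 FPKM in adult LG, 8.33, 16.8 and 15.6 FPKM at E17.5, and 27.5, 24.4 and 25.9 FPKM at E19.5. The 3 stages did not overlap. It was higher at E17.5 than in adult LG (log2 change 3.58 ± 0.28 SE, adjusted p = 1.8e-05 in limma, against 54% of all 18578 genes called) and at E19.5 than in adult LG (4.52 ± 0.28, adjusted p = 6.0e-06, against 54.2%). The difference between E19.5 and E17.5 was 0.94 ± 0.28 and was not called (adjusted p = 0.152, with 1.74% of genes called). Evpl was higher at E19.5 than in adult LG (0.75 ± 0.25, adjusted p = 0.0349) but not at E17.5 (0.65 ± 0.25, adjusted p = 0.0584), and the call at E19.5 was lost without adult replicate 1 or 2 or E19.5 replicate 1 or 2. Sbsn was at 1.03, 1.31 and 3.94 FPKM in adult LG and between 0.914 and 1.58 FPKM in the embryonic libraries, and did not differ beyond its spread (adjusted p = 0.256 and 0.298 in limma). In TPM the median of all genes moved from 0.05 to 1.48 for E17.5 and from 0.09 to 1.31 for E19.5 against adult LG, and the calls moved from 5405 higher and 4634 lower to 12246 and 1156 at E17.5, and from 5637 and 4440 to 11339 and 1050 at E19.5, while Krtdap stayed higher at both stages.

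The epidermis markers were examined beside Krtdap in the embryonic gland. Their sum was 9.94 to 24.9 FPKM at E17.5 and 25.8 to 29.5 at E19.5, of which Krtdap was the larger part, with Lor at 0, Krt10 at most 0.0526 FPKM and Krt1 at 0.156 to 0.468 FPKM except in E17.5 replicate 2 (7.17 FPKM). No Sprr gene had a read in any gland library. The part of skin or other surface epithelium in the embryonic samples was not tested.

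**Figure D4:**
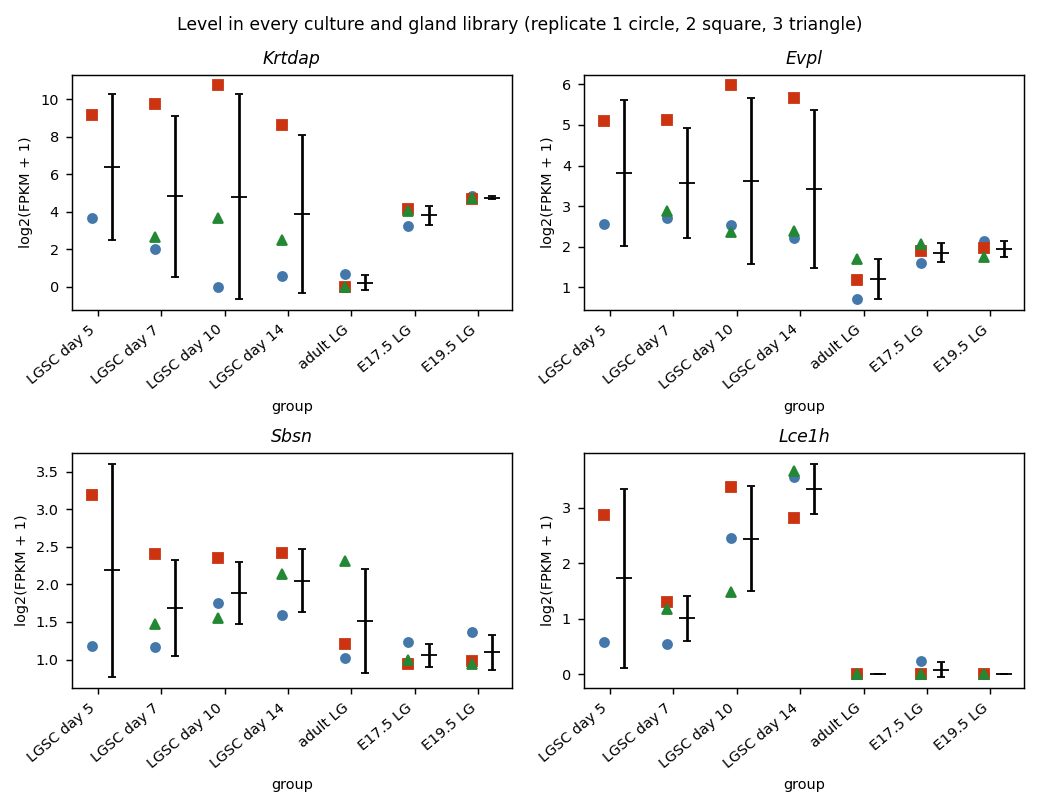
log2(FPKM + 1) of Krtdap, Evpl, Sbsn and Lce1h in all 20 libraries by group, with a symbol for each library (replicate 1 circle, 2 square, 3 triangle) and the mean ± SD of the log2 values beside it. Krtdap is near 0 in adult LG and higher in all 6 libraries of the embryonic gland (8.33 to 27.5 FPKM), and Lce1h is at 0 in the gland apart from 1 library of E17.5.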

How the data were processed

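The authors extracted RNA with Trizol, made libraries with the NEBNext Ultra kit and sequenced paired-end reads. Per the labels, processing used CASAVA 1.8, HISAT2 2.0.5 and featureCounts 1.5.0-p3, and names the build NCBIM37. The authors deposited 1 table of FPKM per library, and the step from counts to FPKM is not given in the sources used here. Of 24 samples, 21 were used. The day 5 replicate 3 and the passage 6 and 20 libraries were not analysed here, and the passage 10 library, made against another gene list, entered no test.

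Symbols, positions (GRCm38) and lengths came from GENCODE M21, so positions are not on the build named by the authors. Reads were recovered from the FPKM steps and lay within 0.01 of a whole number in 92.6% to 93.6% of genes, counting values up to 1000 reads. Tests used limma 3.58.1 (lmFit and eBayes with trend, R 4.3.3) on log2(FPKM + 1) for every gene whose mean over the fitted libraries was 0.5 FPKM or more. P-values were adjusted by Benjamini-Hochberg over all genes of a fit, with a threshold of 0.05. The 3 gland stages shared 1 fit, and other comparisons used only their own groups. On this scale the change of genes with low values is understated. The fits were tested on simulated data. Figures were made with Python 3.11.15, pandas 2.3.3 and matplotlib 3.10.9.

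Genes with a group mean of at least 1 FPKM are named, as are related genes past the threshold at day 14 against adult LG. Other genes named (the 8 listed at 0, Krt1, Krt18 and low Sprr genes) were chosen after their values were seen. The genes and lists were chosen with earlier results of these data known. The replicate numbers pair the cultures, since deviations of same-numbered libraries of days 7, 10 and 14 correlated at 0.257 to 0.719 in every pair, although no label says what a number marks. They did not pair culture with gland or gland stages (correlations from -0.079 to 0.075). Alternatives were another pseudocount (0.1), no filter, TPM or median-ratio scaling, the replicate block, limma-voom on recovered reads, other libraries in the fit, log2 of the day, and each replicate left out. Leaving out the replicate 2 cultures was added after seeing the data.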

Additional observations from a re-analysis of the deposited data

Results flagged for a closer look

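The passage 10 LGSC library (1 library, 7 days of culture, 25172949 recovered reads) was used in no comparison, and 8 of the 47 genes listed at 0 in all 20 other libraries had a value there. Sprr1a, a small proline-rich envelope protein, was at 771 FPKM, Sprr1b at 219, the plakin Ppl at 46.8, involucrin (Ivl) at 36.0, loricrin (Lor) at 15.5, Lce3a at 13.2, Sprr2f at 10.2 and Lce3d at 4.80 FPKM. Of all genes with at least 10 FPKM in the passage 10 library, 577 of 5332 (10.8%) were listed at 0 in all 20 other libraries, and of the 20 genes of the cornified group at that level it was 7 (35%). The passage 10 values came from a table with another gene list, so passage and table cannot be told apart. No library was tested for standing apart from its group, since no group has more than 3.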

How the results depend on the processing

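The larger changes in the counts of genes called under the other alternatives were as follows. Smaller ones are not all listed. They included 2 for day 7 against adult LG with no filter and 6 for day 14 against adult LG with a pseudocount of 0.1. For day 14 against E19.5 LG (6 called), limma-voom with the replicate block called 8, and the fit with all 20 libraries called 4. For the slope over culture days (0 called), limma-voom on recovered reads called 1 gene and 4 with the replicate block, and leaving out the replicate 2 cultures called 1, also 1 with the replicate block. For day 14 against day 7 (0 called), limma-voom with the replicate block called 1. For day 7 against adult LG (3 called), the counts were 6 with a pseudocount of 0.1, 6 in TPM, 5 by limma-voom with the replicate block and 1 with all 20 libraries in the fit. For day 14 against adult LG (4 called), they were 2 with no filter, 9 in TPM, 2 by limma-voom and 8 by limma-voom with the replicate block. Without the replicate 2 cultures the count was 2, of only 7 genes tested. For E17.5 against adult LG (1 called), they were 2 in TPM and 2 with median-ratio scaling. For E19.5 against adult LG (2 called), they were 1 with no filter, 1 by limma-voom with the replicate block and 1 with only the 2 groups in the fit. Where these counts moved, the cause was not tested.

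With single replicates left out, the counts were 0 to 1 for the slope, 1 to 3 for day 7 and 1 to 5 for day 14 against adult LG, 2 to 8 for day 14 against E19.5 LG, and 1 to 2 for E17.5 and 1 to 2 for E19.5 against adult LG. The slope of Tgm3 then ranged from -0.015 to 0.22 log2 units a day, below 0 without day 14 replicate 2. The change of Krtdap from day 7 to day 14 ranged from -3.29 to 1.55, above 0 without day 14 replicate 1 (0.73) or day 7 replicate 2 (1.55). Over all genes, the slope called 334 genes and between 0 (days 7, 10 and 14 only) and 1186 (limma-voom with the replicate block) in the alternatives, 11 without day 5 replicate 1. With the replicate block alone, Sbsn at day 14 against E19.5 LG lost its call (adjusted p = 0.0543 in limma), the count there was 5, and no other call on the 47 genes changed. The number of genes at 1 FPKM or more in any library was 33, and 33 at 1 TPM or more. The levels of genes with a few reads a library, such as Lce1g, are imprecise at this depth.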

Other observations

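In the passage 10 library, 32 of the 47 genes were at 1 FPKM or more, among them Sprr2a1 (146 FPKM), Dmkn (155), Krtdap (127), Sprr2a2 (85.1), Sprr3 (73.0), Cnfn (72.8), Sprr2a3 (37.4), Sbsn (37.7), Evpl (36.6), Sprr2h (21.2) and Tgm1 (12.6). Cnfn, cornifelin, was at most 0.177 FPKM, Tgm1, the main transglutaminase of the epidermal envelope, at most 0.166 FPKM, and Sprr3 at most 1.38 FPKM in the 20 other libraries. Sprr2d was at 11.2 FPKM, Lce1h at 0.834 FPKM and Krt18 at 306 FPKM. With 1 library there is no replicate check, and low values in the 20 other libraries carry the limit given above for Krt5 and Krt14.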
